A study of Mus musculus with 12 samples.

Results

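The genes described here are 8 genes of the complement system, C3, C4b, Cfb, C2, C3ar1, C5ar1, Cd55 and Serping1, taken from a table of RNA-seq read counts for 39017 genes by their symbols. All 8 were found, and all 8 passed the filter on low counts that left 19370 genes for testing. The samples were 12 mouse mammary tumours, 3 in each of 4 groups. Female FVB/N mice of 8 to 12 weeks received 250000 NIC breast cancer cells, in a mixture of PBS and matrigel, in the fourth mammary fat pad. All the cells were ErbB2-positive, so the oncogene was shared by every group. The p66Low groups were grown from NIC cells, which lack p66ShcA, a long isoform of the adaptor protein encoded by Shc1. The p66High groups were grown from cells made to overexpress p66ShcA constitutively. Each line was used in a parental form and in an aggressive form, explanted from tumours after 2 rounds of selection in vivo. The aggressive forms therefore also differ from the parental ones in their passage through mice. Whether a line was a clone or a pool is not given in the sources used here. The titles of replicates 1 and 2 share a number within each p66High group, and the labels do not say whether such tumours grew in the same mouse, so those groups may hold 2 mice each. The p-values therefore cover only the variation seen among these tumours, part of which may be technical. Each tumour was analysed in bulk and held host cells beside the injected cells.

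Complement is a cascade of blood and tissue proteins that marks cells and debris for removal and recruits leukocytes. The classical and lectin routes cut C4 and C2, the alternative route uses factor B, and all routes meet at C3, whose cleavage yields opsonic fragments and the small peptides read by receptors on myeloid cells. Inhibitors in the fluid phase and on host cell membranes keep the cascade in check. The liver makes most of the circulating components, and macrophages, fibroblasts and epithelial cells make them locally, with higher synthesis under interferon and inflammatory cytokines. FVB/N mice are known to carry a defective Hc gene and to lack C5 in serum.

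Of the 8 genes, 4 encode components (C3, C4b, Cfb and C2), 2 encode receptors (C3ar1 and C5ar1) and 2 encode regulators (Cd55 and Serping1). Positions are from GENCODE M21 on mm10, the build named in the submitters' processing notes, and all 8 genes are protein-coding and on the minus strand. C4b (chromosome 17, 34728380 to 34743882), Cfb (34856374 to 34862518) and C2 (34862604 to 34898265) lie within 169.886 kb in the class III region of the major histocompatibility complex, and Cfb and C2 are 85 bases apart. C3 lies elsewhere on chromosome 17 (57203970 to 57228136). C3ar1 is on chromosome 6 (122847138 to 122856161), C5ar1 on chromosome 7 (16246743 to 16259540), Serping1 on chromosome 2 (84765387 to 84775444) and Cd55 on chromosome 1 (130439027 to 130462744).

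The start-site windows of C3, Cd55 and C3ar1 are shown. Cd55 had a pattern of its own across the groups, described further on. C3 and C3ar1 had the same calls in the 4 comparisons of groups, and differed in the size of their changes and in the interaction. Each window runs from 250 bases before to 50 bases after the RefSeq start site (GRCm38.p6), 5′ to 3′ on the coding strand, with motif matches in capitals. RefSeq windows were matched for 4 of the 8 genes, the fourth being C5ar1.
C3, chr17:57228087-57228386, minus strand: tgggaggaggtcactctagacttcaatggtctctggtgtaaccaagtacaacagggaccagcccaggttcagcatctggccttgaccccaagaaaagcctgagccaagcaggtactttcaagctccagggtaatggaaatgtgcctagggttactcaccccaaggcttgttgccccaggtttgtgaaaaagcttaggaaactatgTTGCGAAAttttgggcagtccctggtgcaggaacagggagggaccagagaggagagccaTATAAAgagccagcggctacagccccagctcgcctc
Cd55, chr1:130462695-130462994, minus strand: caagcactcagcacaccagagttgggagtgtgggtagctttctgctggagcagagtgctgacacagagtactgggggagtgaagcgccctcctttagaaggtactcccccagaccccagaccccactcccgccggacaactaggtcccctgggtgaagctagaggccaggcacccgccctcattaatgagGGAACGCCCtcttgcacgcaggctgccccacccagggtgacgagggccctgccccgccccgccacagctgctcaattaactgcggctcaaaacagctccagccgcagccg
C3ar1, chr6:122856108-122856407, minus strand: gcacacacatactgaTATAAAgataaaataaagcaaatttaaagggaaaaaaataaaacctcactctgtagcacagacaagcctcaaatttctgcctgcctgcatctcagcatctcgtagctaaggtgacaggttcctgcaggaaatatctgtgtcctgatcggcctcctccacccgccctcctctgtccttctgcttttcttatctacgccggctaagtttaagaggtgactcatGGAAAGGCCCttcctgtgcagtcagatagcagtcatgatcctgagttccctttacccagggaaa
In all, 6 motifs were searched on both strands. The C3 window held the C/EBP motif TTGCNNAA 45 bases before the start site, a motif found in 10.8% of all such windows, and TATAAA 14 bases after it (13.6% of windows). The C3ar1 window held the longer form of the NF-kB motif on the opposite strand 14 bases before the start site (1.63% of windows) and TATAAA near its upstream end. The Cd55 window held only the shorter form of the NF-kB motif, GGGNNTTCC, also on the opposite strand, 60 bases before the start site (5.82% of windows). The STAT motif TTCNNNGAA (8.30% of windows) and the interferon-stimulated response element (3.44%) were in none of the 4 windows, and the C5ar1 window held none of the 6 motifs. These matches describe letters in the windows and were not measured as binding sites. The longer NF-kB form has 1 base more between its ends, so a match to one is not a match to the other at the same position.

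Depth ran from 17368192 to 76103880 counts per tumour. Counts of Shc1, which do not separate its isoforms, were 59.0 to 69.9 CPM (counts scaled to the same library total) in the 6 p66Low tumours and 223 to 774 CPM in the 6 p66High tumours. Epithelial markers summed to 2265 to 3401 CPM in every tumour. Libraries stood apart in genes of lymph node tissue, which lies in the mammary fat pad. The 7 stromal markers of lymph node (such as Ccl21a, Cxcl13 and Madcam1) summed to 131 and 191 CPM in p66Low aggressive replicates 1 and 2 and to 42.6 CPM in p66High parental replicate 3, against at most 1.70 CPM in the other 9 tumours. The 8 B cell markers summed to 128, 178 and 35.9 CPM in those 3 tumours and to at most 3.74 CPM elsewhere. Results for the complement genes are therefore also given without these 3 tumours.

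Per kb of exon, the scale on which levels of different genes can be compared, the order of the genes differed between groups. In p66Low parental tumours Cd55, Cfb and C4b stood highest, with mean levels of 13.5, 12.8 and 12.5 CPM per kb, closer together than their spreads. Serping1 (6.93) and C3 (6.86) followed, and the receptors C3ar1 (2.60) and C5ar1 (1.25) and the component C2 (0.882) were lowest. In p66Low aggressive tumours C3 stood first at 53.4 ± 33.3 CPM per kb (SD, n = 3), followed by Cfb at 48.6 ± 12.2 and C4b at 42.9 ± 15.2, which did not differ beyond their spread, then Serping1 at 20.96 and Cd55 at 11.3. In p66High parental tumours the levels were 18.4 CPM per kb for C4b, 16.5 for Cd55, 13.9 for Cfb and 12.5 for C3. In p66High aggressive tumours C4b (10.9) and Serping1 (7.64) led and Cd55 was at 3.17 CPM per kb. The level of C3 relative to Cd55, per kb, averaged 0.567 in p66Low parental, 0.767 in p66High parental, 4.504 in p66Low aggressive and 1.66 in p66High aggressive tumours. The range of that ratio was 1.95 to 5.92 in p66Low aggressive tumours and 0.466 to 2.95 in p66High aggressive tumours, so those groups overlapped.

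**Figure D1:**
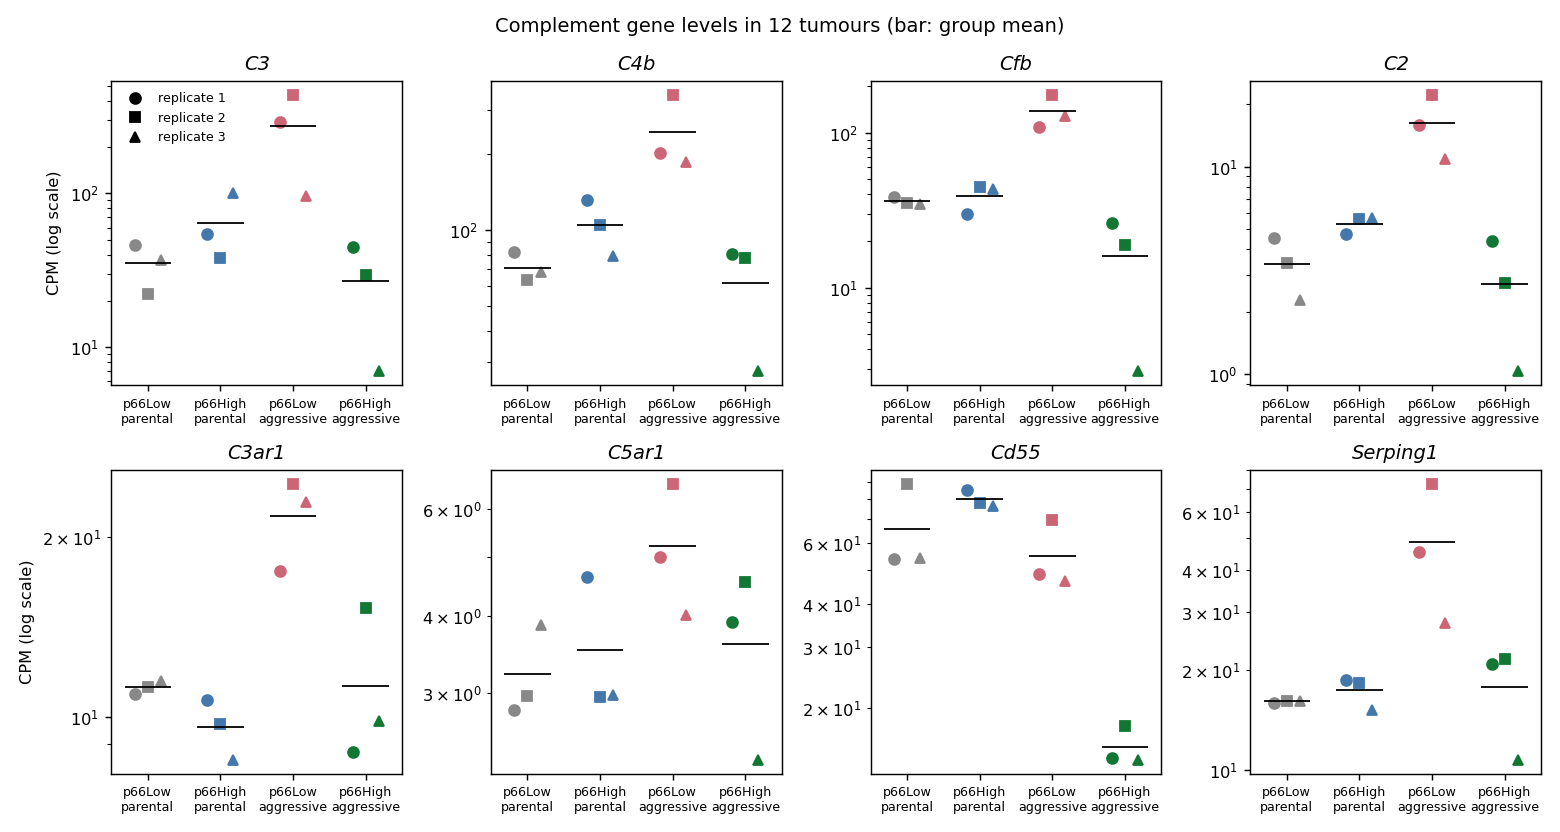
Levels of the 8 complement genes in each tumour, in CPM scaled by trimmed mean of M-values, on log axes; points are tumours, 3 per group, and bars are group means. C4b, Cfb, C2, C3ar1 and Serping1 lie higher in all 3 p66Low aggressive tumours than in the other 9 tumours, and Cd55 lies lowest in the 3 p66High aggressive tumours.

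The 4 comparisons of groups and their interaction were tested for every gene with edgeR's quasi-likelihood test and Benjamini-Hochberg adjustment over all 19370 genes. In p66Low tumours, the aggressive form against the parental form, 6 of the 8 complement genes rose (C3, C4b, Cfb, C2, C3ar1 and Serping1) and none fell, where 16.6% of all genes tested changed, 9.6% rising and 7.03% falling. Between the aggressive groups, 7 of the 8 were lower in p66High than in p66Low tumours, all but C5ar1, where 21% of all genes differed, 12.1% being lower and 8.92% higher. In p66High tumours, aggressive against parental, 1 of the 8 changed, Cd55, which fell, where 5.94% of all genes changed, 2.82% falling and 3.11% rising. Between the parental groups 0 of the 8 passed the test, where 8.08% of all genes did (3.98% being higher when p66High and 4.1% lower). None of the 8 had an unadjusted p under 0.05 there (0 of 8). DESeq2 and limma-voom also called 0 of the 8 between the parental groups. The median log2 difference of the 8 genes was 0.21 between the parental groups, 1.69 on selection of p66Low tumours, -0.85 on selection of p66High tumours and -1.91 between the aggressive groups, beside medians over all genes between -0.02 and 0.02. Comparisons that use the same group share its tumours, so these counts are not independent of each other.

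C3 encodes the protein on which all activation routes converge. The parental tumours held 46.6, 22.2 and 37.1 CPM of its transcript when p66Low and 54.6, 38.2 and 100.05 CPM when p66High. The aggressive tumours held 291, 437 and 95.7 CPM when p66Low and 44.7, 29.5 and 6.99 CPM when p66High. The p66Low aggressive tumours were above every tumour of the p66Low parental and p66High aggressive groups, but the lowest of them, replicate 3, was below p66High parental replicate 3. In p66Low tumours C3 rose on selection by 2.96 ± 0.67 on the log2 scale (SE, adjusted p = 0.013). The call ended without p66Low parental replicate 3 (3.02, adjusted p = 0.0539) or p66Low aggressive replicate 2 (2.45, adjusted p = 0.0507). Between the aggressive groups C3 was lower in p66High tumours (-3.33 ± 0.69, adjusted p = 0.00601). In p66High tumours the difference on selection was -1.24 (adjusted p = 0.277).

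C4b encodes the component that the classical and lectin routes cut first. It stood at 81.9, 63.3 and 68.1 CPM in p66Low parental, 131, 104 and 78.9 CPM in p66High parental, 203, 344 and 187 CPM in p66Low aggressive and 80.4, 77.7 and 27.6 CPM in p66High aggressive tumours. All 3 p66Low aggressive tumours were above the other 9. C4b rose by 1.78 ± 0.37 on the log2 scale on selection of p66Low tumours (adjusted p = 0.00819) and was lower in p66High than in p66Low aggressive tumours (-1.98 ± 0.37, adjusted p = 0.00359). Counts of C4a, its close relative in the same region, were 7.25 to 13.8% of those of C4b per tumour, and reads that fit both copies may have been split between them.

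Cfb encodes factor B, the protease of the alternative route. Tumours held 38.3, 35.3 and 34.8 CPM of it in the p66Low parental group, 29.9, 44.8 and 43.0 CPM in p66High parental, 108, 175 and 128 CPM in p66Low aggressive and 26.2, 19.0 and 2.89 CPM in the p66High aggressive group. The p66Low aggressive tumours were again above the other 9, and every p66High aggressive tumour was below every other tumour. Cfb rose by 1.93 ± 0.51 on the log2 scale on selection of p66Low tumours (adjusted p = 0.0256) and was lower in p66High than in p66Low aggressive tumours (-3.09 ± 0.54, adjusted p = 0.0026). The first of these calls ended without p66Low parental replicate 1 (1.99, adjusted p = 0.0695), 2 (1.93, 0.0618) or 3 (1.92, 0.0856), or without p66Low aggressive replicate 2 (1.71, 0.0879), with differences of similar size. On selection of p66High tumours the difference was -1.28 (adjusted p = 0.164), though the groups did not overlap, as was the case for 32.6% of all genes tested. A readthrough gene model, Gm20547 (34856412 to 34882042, same strand), covers most of Cfb and part of C2, and its counts were 96.9 to 109% of those of Cfb in every tumour, so the reads of Gm20547 and Cfb cannot be told apart.

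C2 encodes the protease that pairs with C4 in the classical and lectin routes. It was the lowest of the components, at 4.51, 3.45 and 2.29 CPM in p66Low parental, 4.71, 5.59 and 5.66 CPM in p66High parental, 15.9, 22.2 and 10.9 CPM in p66Low aggressive and 4.39, 2.75 and 1.04 CPM in the p66High aggressive group. The p66Low aggressive tumours were above the other 9. C2 rose by 2.26 ± 0.43 on the log2 scale on selection of p66Low tumours (adjusted p = 0.00609) and was lower in p66High than in p66Low aggressive tumours (-2.56 ± 0.44, adjusted p = 0.00247). In p66High tumours the aggressive and parental groups did not overlap, as for 32.6% of all genes tested, and the difference was -0.94 (adjusted p = 0.217). Zbtb12 overlaps C2 on the opposite strand, and whether counting used the strand is not given in the sources used here.

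The receptors differed less. C3ar1 encodes the receptor for the C3a peptide, found on myeloid cells. Counts came to 10.9, 11.2 and 11.5 CPM in p66Low parental, 10.7, 9.75 and 8.48 CPM in p66High parental, 17.5, 24.6 and 22.9 CPM in p66Low aggressive and 8.76, 15.2 and 9.84 CPM in p66High aggressive tumours. All 3 p66Low aggressive tumours exceeded the other 9. C3ar1 rose by 0.95 ± 0.20 on the log2 scale on selection of p66Low tumours (adjusted p = 0.00931) and was lower by a like amount in p66High than in p66Low aggressive tumours (-0.95 ± 0.20, adjusted p = 0.0071). C5ar1 encodes the receptor for the C5a peptide. It stood at 2.81, 2.96 and 3.87 CPM in p66Low parental, 4.65, 2.96 and 2.98 CPM in p66High parental, 5.002, 6.60 and 4.02 CPM in p66Low aggressive and 3.91, 4.56 and 2.33 CPM in the p66High aggressive group. The p66Low aggressive tumours did not overlap the p66Low parental ones, as for 32.8% of all genes, but C5ar1 passed the test in none of the comparisons. Its difference on selection was 0.69 ± 0.30 in p66Low tumours (adjusted p = 0.135) and 0.03 in p66High tumours (adjusted p = 0.964), and -0.53 ± 0.30 between the aggressive groups (adjusted p = 0.24).

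Serping1 encodes the C1 inhibitor, a secreted serpin that blocks the first proteases of the classical and lectin routes. It was 15.99, 16.15 and 16.17 CPM in p66Low parental, 18.7, 18.3 and 15.2 CPM in p66High parental, 45.4, 72.9 and 27.8 CPM in p66Low aggressive and 20.9, 21.7 and 10.7 CPM in the p66High aggressive group. The p66Low aggressive tumours were above the other 9, as they were for C4b, Cfb and C2 but not for C3. Serping1 rose by 1.60 ± 0.32 on the log2 scale on selection of p66Low tumours (adjusted p = 0.00732) and was lower in p66High than in p66Low aggressive tumours (-1.45 ± 0.32, adjusted p = 0.00816). The latter call ended when the 6 aggressive tumours were fitted alone (adjusted p = 0.0501).

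Cd55 encodes decay-accelerating factor, a membrane protein that takes apart the enzymes that cut C3 on host cells, and it had a pattern of its own. It was 53.7, 88.8 and 54.1 CPM in p66Low parental, 85.2, 78.2 and 76.4 CPM in p66High parental, 48.7, 69.7 and 46.4 CPM in p66Low aggressive and 14.3, 17.7 and 14.1 CPM in the p66High aggressive group. The p66High aggressive tumours were below the other 9 and close to each other, and the p66Low parental tumours overlapped both remaining groups. Cd55 fell by 2.38 on the log2 scale on selection of p66High tumours (SE 0.22, adjusted p = 0.000304), and was lower in p66High than in p66Low aggressive tumours (-1.84 ± 0.21, adjusted p = 0.000341). On selection of p66Low tumours its difference was -0.25 ± 0.20 (adjusted p = 0.449). The neighbouring paralog Cd55b, 16.02 kb away, was at 1.30 to 1.73 CPM in p66High parental and 0.173 to 0.432 CPM in p66High aggressive tumours, a fall of 2.54 on the log2 scale, and its counts were only 1.22 to 3.46% of those of Cd55, and reads that fit both copies cannot be told apart. Protein-coding genes of chromosome 1 had a median difference of -0.06 on selection of p66High tumours, beside the -2.38 of Cd55. Between the aggressive groups their median was 0.36, beside the -1.84 of Cd55. Of the 882 such genes tested, 372 were higher and 117 lower in p66High tumours there, where 8.92% and 12.1% of all genes were.

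**Figure D2:**
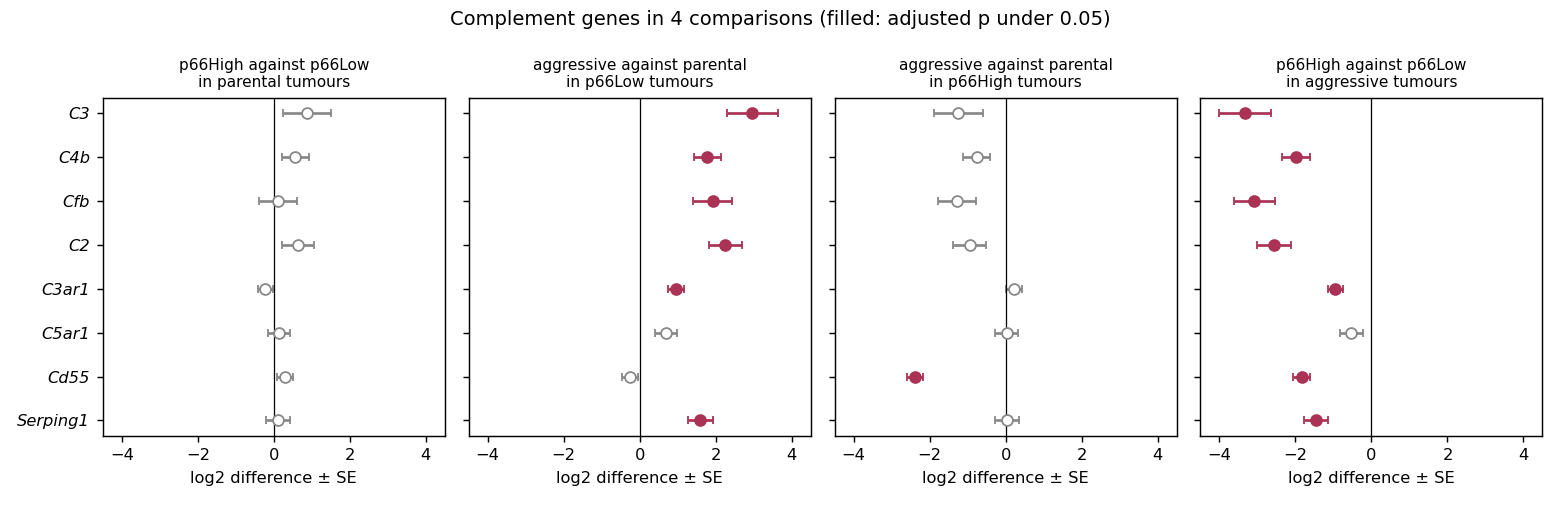
Log2 differences of the 8 complement genes in the 4 comparisons of groups, from edgeR's quasi-likelihood fit on 12 tumours; bars are standard errors, filled points have an adjusted p under 0.05 and open points do not. The components, C3ar1 and Serping1 lie above 0 on selection of p66Low tumours, and Cd55 is the one filled point on selection of p66High tumours.

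The interaction asks whether selection moved a gene differently in p66High and p66Low tumours. Of all genes tested 12.4% passed, 7.99% with a lower change on selection in p66High tumours and 4.37% with a higher one. The interaction was past the test for 6 of the 8 genes, each with a lower change in p66High than in p66Low tumours. It was -4.20 ± 0.92 on the log2 scale for C3 (adjusted p = 0.0161), -3.20 ± 0.72 for Cfb (adjusted p = 0.0173), -3.20 ± 0.61 for C2 (adjusted p = 0.00993) and -2.54 ± 0.51 for C4b (adjusted p = 0.0116). For Cd55 it was -2.13 ± 0.29 (adjusted p = 0.00253) and for Serping1 -1.56 ± 0.45 (adjusted p = 0.0427). The components reached these values through higher levels in p66Low aggressive tumours together with lower mean levels in p66High aggressive than in p66High parental tumours that did not pass the test, and Cd55 through its fall in p66High tumours. The receptors did not pass, with -0.73 ± 0.28 for C3ar1 (adjusted p = 0.117) and -0.66 ± 0.42 for C5ar1 (adjusted p = 0.327). The call for Serping1 ended when any single tumour other than p66Low aggressive replicate 3 was left out, in limma-voom (adjusted p = 0.106), and with tumours that share a title number summed (adjusted p = 0.0959). Without p66High aggressive replicate 2 the interaction of C3ar1 passed (adjusted p = 0.028).

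Single tumours set much of the range. The highest level over the 12 tumours was 62.6 times the lowest for C3, 60.6 times for Cfb, 21.4 times for C2 and 12.4 times for C4b, against 6.79 for Serping1, 6.28 for Cd55, 2.90 for C3ar1 and 2.83 for C5ar1. The highest tumour was p66Low aggressive replicate 2 for 7 of the 8 genes, as for 12.1% of all genes, and the lowest was p66High aggressive replicate 3 for 7 of the 8, as for 15.3% of all genes. The exceptions were Cd55, highest in p66Low parental replicate 2, and C3ar1, lowest in p66High parental replicate 3. In p66High aggressive replicate 3 the level of Cfb was 0.128 times the mean of the other 2 tumours of its group, that of C3 0.188 times, C2 0.290 times and C4b 0.349 times, while Cd55 was at 0.885 times and C3ar1 at 0.821 times. In the same tumour the summed level was the lowest of the 12 for the macrophage markers (219 CPM), the fibroblast markers (1537 CPM), the endothelial markers (65.7 CPM) and the adipocyte markers (15.7 CPM), and the part of these in the result was not tested. Over all 12 tumours, 5 of the 8 genes were higher in each p66Low aggressive tumour than in the other 9 tumours, as were 6.84% of all genes.

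Lymph node genes and complement genes were not high together in every tumour. In p66High parental replicate 3, rich in lymph node genes, C3 (100.05 CPM) and C2 (5.66 CPM) were the highest of the group. Its C4b (78.9 CPM) and Serping1 (15.2 CPM) were the lowest of the group, and its C3ar1 (8.48 CPM) the lowest of all tumours. Among p66Low aggressive tumours, replicates 1 and 2 were rich in lymph node genes. Replicate 3 was not, at 1.13 CPM for the stromal markers, within the range of the other groups. Replicate 3 had 2.71 times the p66Low parental mean for C3, 2.63 times for C4b, 3.54 times for Cfb, 3.18 times for C2, 2.04 times for C3ar1 and 1.73 times for Serping1. It also had the lowest C3, C4b, C2 and Serping1 of its group. Its T cell markers summed to 36.4 CPM, against at most 4.06 CPM in p66Low parental tumours. The part of lymph node tissue in the complement results was not tested. With the 3 tumours rich in lymph node genes left out, which leaves 1 p66Low aggressive tumour whose spread is taken from the other groups, 0 of the 8 genes passed the test on selection of p66Low tumours in edgeR, 5 had an unadjusted p under 0.05, and 3.47% of all genes passed, against 16.6% with all tumours. The differences there were 1.43 for C3 (adjusted p = 0.324), 1.39 for C4b (0.129), 1.82 for Cfb (0.218), 1.67 for C2 (0.154), 1.02 for C3ar1 (0.0763) and 0.78 for Serping1 (0.218). Between the aggressive groups 2 of the 8, Cfb (-2.98, adjusted p = 0.0416) and Cd55 (-1.58, adjusted p = 0.0114), passed without these tumours, where 5.29% of all genes did. The other differences there were -1.80 for C3 (adjusted p = 0.178), -1.58 for C4b (0.0698), -1.96 for C2 (0.0803), -1.01 for C3ar1 (0.0635) and -0.63 for Serping1 (0.299). In the interaction 1 of the 8, Cd55 (-1.91, adjusted p = 0.0306), passed, where 1.65% of all genes did, and the components had values of -2.20 for C3, -2.32 for C4b, -3.03 for Cfb and -2.56 for C2. The difference of Cd55 on selection of p66High tumours was -2.41 on the log2 scale in that fit (adjusted p = 0.00231). The difference of C3 on selection of p66Low tumours was thus 1.43, against 2.96 with all tumours, and that of Serping1 0.78 against 1.60. Those of Cfb (1.82 against 1.93) and C3ar1 (1.02 against 0.95) changed less. The 2 fits share tumours, and the changes between them were not tested.

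**Figure D3:**
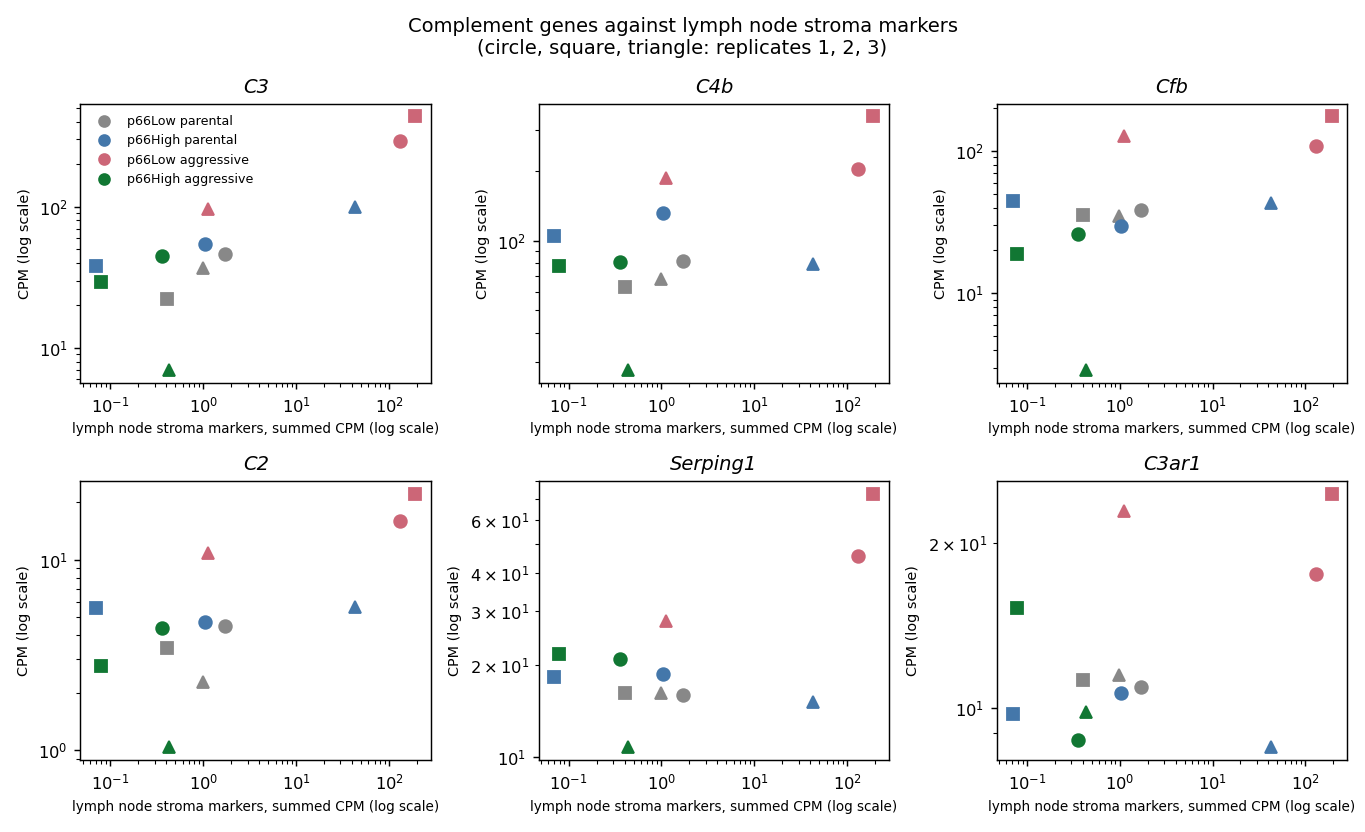
Levels of 6 of the complement genes (C3, C4b, Cfb, C2, Serping1 and C3ar1) against the summed level of the 7 lymph node stromal markers in the same tumour, both in CPM on log axes, with tumours coloured by group and shaped by replicate. The 3 tumours on the right are p66Low aggressive replicates 1 and 2 and p66High parental replicate 3, and p66Low aggressive replicate 3 lies on the left, with the tumours of low marker level.

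Markers of other cell types also differed between the groups. The 10 T cell markers summed to 36.4 to 203 CPM in p66Low aggressive tumours against 2.26 to 4.06 CPM in p66Low parental and 1.64 to 10.96 CPM in p66High aggressive tumours, and all 10 rose on selection of p66Low tumours, beside 9.6% of all genes. In p66High parental tumours they summed to 4.51 to 37.1 CPM, which overlaps the p66Low aggressive range. The 12 macrophage markers summed to 471 to 1032 CPM in p66Low aggressive, 349 to 448 CPM in p66Low parental, 494 to 643 CPM in p66High parental and 219 to 486 CPM in p66High aggressive tumours. Of them 6 rose on selection of p66Low tumours and 6 were lower in p66High than in p66Low aggressive tumours, where 12.1% of all genes were. The summed neutrophil markers were at 572 to 1483 CPM in p66Low aggressive, 43.4 to 275 CPM in p66Low parental, 409 to 896 CPM in p66High parental and 45.4 to 216 CPM in p66High aggressive tumours, with Camp and Ngp among those at 0 in p66Low aggressive replicate 3. Of the 10 neutrophil markers 6 were tested, and all 6 were lower in p66High than in p66Low aggressive tumours, where 12.1% of all genes were. Ly6g, Retnlg, Camp and Ngp had no count in any parental tumour, and Ly6g had counts only in p66Low aggressive replicate 2. The summed level therefore came from the other markers of the list in most tumours. The fibroblast markers summed to 2060 to 6519 CPM in p66Low aggressive and 2593 to 3196 CPM in p66Low parental tumours, and 1 of 10 rose, about the share of all genes. Hepatocyte markers summed to 7.66 CPM at most. The part of these cell types in the complement results was not tested, and in bulk tumours fewer cells of a type and less RNA per cell cannot be told apart.

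Each complement gene was compared with 13052 protein-coding genes that had a mean of at least 1 CPM. The genes most like it had the smallest root mean square difference of centred log2 CPM over the 12 tumours. For C4b they were C1ra (0.21), a protease of the classical route, Dram1 (0.22) and AI607873 (0.23). For Serping1 they were Ncf1 (0.17), a subunit of the phagocyte oxidase, C1rb (0.20) and Nckap1l (0.21), and for C3ar1 they were Gatm (0.18), Cd68 (0.18), a macrophage marker, and Sema3f (0.20). C2 was nearest to Clec12a (0.25), Cd48 (0.28) and Selplg (0.29), surface proteins of leukocytes, and C3 to Cacna1e (0.27), Gpr132 (0.28) and Clec2i (0.33). Cfb had no near neighbour beside its overlapping Gm20547 (0.04), since Tlr9 (0.43) and AB124611 (0.44) came next. Tlr9, AB124611 and Gpr132 were at 0.086 CPM in their lowest tumour and Cacna1e at 0 CPM, so their distances rest partly on few counts. C5ar1 was nearest to the matrix genes Bgn (0.16) and Col1a1 (0.19) and to Lrp1 (0.20), and Cd55 to Reps2 (0.34), Eps8l1 (0.39) and its neighbour Cd55b (0.39). Among the 8 genes, the nearest to Cd55 was C4b, at rank 5467, whereas C2 was at rank 21 for Cfb and rank 49 for C3. These measures are over 12 tumours that share groups and depth, and they are given as descriptions.

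Genes around the complement genes were read from the same fit. Within 200 kb of C4b, Cfb and C2, 31 other protein-coding genes were tested, of which on selection of p66Low tumours 1 rose, Slc44a4 (2.02, adjusted p = 0.00871), and 3 fell, with a median difference of -0.04. Between the aggressive groups 3 of the 31 were higher and 3 lower in p66High tumours. Both shares are near those of all genes, 16.6% and 21%. Within 200 kb of C3, 10 others were tested, and 3 of them rose on selection of p66Low tumours: Dennd1c, Tnfsf14 and the leukocyte signalling gene Vav1. The median difference of the 10 was 0.07, and 9.6% of all genes rose. The same 3 were lower in p66High than in p66Low aggressive tumours, where 12.1% of all genes were, and the median of the 10 was -0.29. The one other gene tested within 200 kb of Cd55 was Cd55b, which differed in the same direction as Cd55.

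A further list held 44 complement genes beyond the 8, of which 36 were tested. On selection of p66Low tumours 15 rose and 1 fell, with a median log2 difference of 0.95 over the 36, beside 9.6% and 7.03% of all genes. The classical route accounted for 8 of the 15, as 8 of its 9 listed genes rose, including C1qa, C1qb, C1qc, C1ra and C1s1. C1qc, a chain of the recognition molecule C1q, was at 36.3 ± 1.14 CPM in p66Low parental and 71.1 ± 9.25 CPM in p66Low aggressive tumours (SD, n = 3 each) and rose by 0.97 on the log2 scale (adjusted p = 0.00429). Itgb2 and Itgax, which encode the chains of complement receptor 4, rose by 1.96 (adjusted p = 0.00341) and 1.58 (adjusted p = 0.00426). In the other direction C9, the pore-forming component, was at 1.30 to 2.37 CPM in p66Low parental and 0.433 to 0.756 CPM in p66Low aggressive tumours and fell by 1.78 on the log2 scale. Hc, which encodes C5, was low in every tumour, at 0.714 to 2.41 CPM. Without the 3 tumours rich in lymph node genes, 4 of 35 tested genes rose (C1qb, C1qc, Clu and Itgax) and 0 fell, where 3.47% of all genes changed.

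Between the aggressive groups, 19 of the 36 were lower and 1, C9, was higher in p66High tumours, with a median of -1.25, beside 12.1% and 8.92% of all genes. All 9 genes of the classical route were among the lower ones. Without the 3 tumours rich in lymph node genes 7 were lower, including Clu, Cd55b, C1qb and C1qc, and 0 were higher, where 5.29% of all genes differed. Clu, which encodes clusterin, a secreted inhibitor of the terminal pore, was at 170, 286 and 244 CPM in p66Low aggressive and 39.4, 36.3 and 32.4 CPM in p66High aggressive tumours, a difference of -2.69 on the log2 scale (adjusted p = 0.000169), and Clu rose by 1.86 on selection of p66Low tumours (adjusted p = 0.00116) and fell by 1.19 on selection of p66High tumours, a call that ended without the 3 tumours. C1rl (-2.13, adjusted p = 0.000415), Cd55b (-2.62, adjusted p = 0.000641) and Itgax (-1.74, adjusted p = 0.00191) were the other lower genes with the smallest p-values. On selection of p66High tumours 5 of the 36 fell, Clu, Cd55b, Cr1l (-0.56), Susd4 (-1.55) and C5ar2 (-1.31), and none rose, beside 2.82% and 3.11% of all genes. With the 3 tumours left out 2 fell, Cd55b and Cr1l, where 2.88% of all genes changed. Of the 5, Cd55b, Cr1l and Susd4 encode inhibitors that sit on membranes, as Cd55 does, and C5ar2 encodes the other receptor for C5a. These were 3 of the 7 membrane inhibitors in the list, and the others did not pass. Cd46, also a membrane inhibitor, had a higher mean in p66High aggressive (3.55 CPM) than in p66High parental tumours (2.46 CPM). Between the parental groups 2 were higher in p66High tumours, Cr1l (0.69) and Susd4 (1.63), and 2 were lower, Cd46 (-1.24), another membrane inhibitor, and C1rl (-1.02). These 4 of 36 are a share near the 8.08% of all genes that differed there. Of the 4 calls that of Cr1l also held without the 3 tumours. The interaction was past the test for 17 genes in the lower direction, with -3.05 for Clu, -2.44 for Cd55b, -2.22 for Itgb2 and -1.16 for C1qc, and for 1 in the higher direction, C9, beside 7.99% and 4.37% of all genes. The interaction passed for 1 of the 35, Clu, without the 3 tumours, where 1.65% of all genes passed. Cr2, which encodes a receptor of B cells and follicular dendritic cells, was at 37.1 and 51.7 CPM in the 2 p66Low aggressive tumours rich in lymph node genes and at 11.9 CPM in p66High parental replicate 3.

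**Figure D4:**
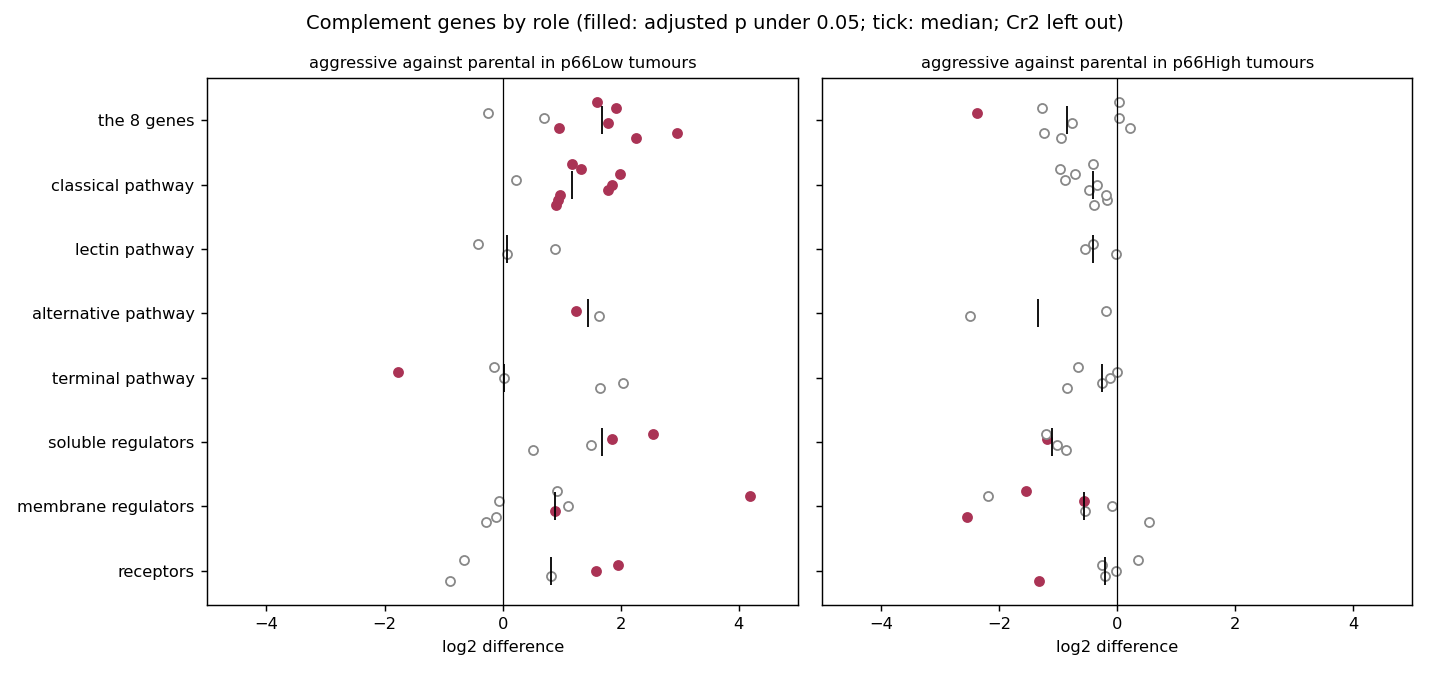
Log2 differences of the 8 genes and of the tested genes of the wider complement list, by role and without Cr2, on selection of p66Low tumours (left) and of p66High tumours (right); each point is a gene, filled points have an adjusted p under 0.05 and ticks are medians of the role. The classical route lies above 0 on the left, with 8 of 9 genes past the test, and below 0 on the right, with none past it.

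Genes known to raise the transcription of complement genes, or to carry the cytokine signals that do, were listed separately. The list also held Ciita, and 19 of its 21 genes were tested. On selection of p66Low tumours 11 rose and 1 fell, with a median of 0.80 on the log2 scale, beside 9.6% and 7.03% of all genes. Ciita, the master regulator of MHC class II genes, was at 7.07 to 8.83 CPM in p66Low parental and 64.1 to 74.2 CPM in p66Low aggressive tumours and rose by 3.15. Irf1, an interferon-responsive factor, was at 37.7 to 53.4 CPM and 136 to 183 CPM in the same groups and rose by 1.84, and the NF-kB subunits Relb and Nfkb2 rose by 1.06 and 0.80. The gene that fell was Cebpb. Between the aggressive groups 11 were lower in p66High tumours, among them Ciita (-2.80), Irf1 (-1.72), Relb (-1.27) and Il1b (-2.46), and Cebpb was higher, beside 12.1% and 8.92% of all genes. Without the 3 tumours rich in lymph node genes 4 of 20 rose on selection of p66Low tumours, Irf1 and Ciita among them, where 3.47% of all genes changed. In that fit 8 were lower between the aggressive groups, where 5.29% of all genes differed. On selection of p66High tumours 1 of the 19, Il1b, fell (-1.76), a share near the 5.94% of all genes that changed there. Between the parental groups 0 passed in edgeR, where 8.08% of all genes did, and 2 had an unadjusted p under 0.05. Whether these genes had a part in the levels of the 8 complement genes was not tested.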

How the data were processed

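RNA was sequenced from 12 tumours. The deposited values are raw counts per gene. The submitters' processing notes name featureCounts 1.4.4, STAR 2.3.0e, Trimmomatic 0.32 and build mm10. The handling of reads that match several genes, and of strand, is not given in the sources used here. Of the genes in the table, 37693 (96.6%) were matched to GENCODE M21 by identifier, and 9307 had no count in any tumour. In R 4.3.3, edgeR 4.0.16 was fitted to all 12 tumours with 1 coefficient per group, TMM scaling, filterByExpr and a quasi-likelihood F-test, leaving 8 residual degrees of freedom. Benjamini-Hochberg adjustment covered every gene tested, 0.05 was the threshold, and the standard error is the log2 difference over the square root of F. The fit was tested on simulated data with 200 changed genes. Levels are TMM-scaled CPM, and levels per kb divide by exon length. Replicates of a group differed beyond counting noise, with a chi-square of at least 20.6 per degree of freedom. Alternatives were DESeq2 1.42.0, limma-voom (limma 3.58.1), other scalings and filters, and leaving out tumours. The omission of the 3 tumours rich in lymph node genes was among them. The 8 genes and the lists were chosen with earlier results of these data known. Named genes were the 8, up to 4 per list and comparison with the smallest adjusted p, and the 3 genes most like each of the 8; genes named besides were chosen after their values were seen. The values of 1 listed gene are not reported here.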

Additional observations from a re-analysis of the deposited data

Results flagged for a closer look

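Selection moved 6 of the 8 complement genes differently in p66High and p66Low tumours, by the interaction term of edgeR's fit. Of all genes tested 12.4% passed for this term, 7.99% in the same direction as the 6. The differences between the changes, on the log2 scale, were -4.20 for C3, -2.54 for C4b, -3.20 for Cfb, -3.20 for C2, -2.13 for Cd55 and -1.56 for Serping1. For the 4 components and Serping1 the change on selection was positive and past the test in p66Low tumours and not past it in p66High tumours, and for Cd55 the reverse held, with a fall in p66High tumours alone past the test. Without the 3 tumours rich in lymph node genes Cd55 alone of the 6 passed, and the adjusted p was 0.261 for C3, 0.0844 for C4b, 0.151 for Cfb, 0.13 for C2 and 0.328 for Serping1. The call for Serping1 also ended when any single tumour other than p66Low aggressive replicate 3 was left out.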

How the results depend on the processing

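Counts of complement genes past the test stayed within 1.5 times those reported under all alternatives run except one. Without the 3 tumours rich in lymph node genes, the count was 0 on selection of p66Low tumours, 2 between the aggressive groups and 1 for the interaction. When each tumour was left out in turn, the counts were 4 to 6 on selection of p66Low tumours, 1 on selection of p66High tumours, 7 between the aggressive groups, 0 between the parental groups and 5 to 6 for the interaction. Some differences that did not pass the test changed sign, and the cause was not tested. On selection of p66High tumours C5ar1 (0.03 as reported) was -0.096 with tumours that share a title number summed, -0.082 without the 3 tumours, and -0.17 to 0.28 with each tumour left out in turn. In the same comparison Serping1 (0.04) was -0.075 with those sums, -0.057 without the 3 tumours, and -0.13 to 0.28 with each tumour left out. C3ar1 (0.23) ranged from -0.052 to 0.38 with each tumour left out. Left out likewise, C5ar1 between the parental groups (0.13) ranged from -0.12 to 0.30, and Cd55 on selection of p66Low tumours (-0.25) from -0.46 to 0.047. With tumours that share a title number summed, 305 genes passed on selection of p66High tumours (1150 as reported) and 1179 in the interaction (2395), while the complement genes past the test numbered 1 and 5. Scaling by library size alone shifted the median of all genes by 0.11 on selection of p66Low tumours. No paired analysis was possible because the numbers in the labels do not repeat across groups. With 3 tumours per group, small differences such as those of C5ar1 were not resolved.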
